A study of Mus musculus with 9 samples.

Results

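Liver tumors of the group S7HP were compared with liver tumors of the group LHP, 3 tumors a side, in C57BL/6 mice aged 11 weeks. These 6 tumors were taken from a series of 9, whose other 3 tumors (S7HP+Snail) entered the filter on low values and the shared estimate of spread and no group mean compared here. Column headers in the files name a Luc construct for LHP and Smad7 for S7HP, so the comparison asks what differs when Smad7 stands in the place of Luc. The letters HP are common to both group names and the labels do not spell them out, nor do they say how the constructs were delivered, which cells carried them or whether the tumors came from separate animals. P-values therefore measure the spread between these tumors. Of 24421 gene symbols, 14215 reached a log2 value of 4 in 3 or more of the 9 libraries and were tested.

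TGF-β ligands and activins bind paired type I and type II receptor kinases, which phosphorylate Smad2 and Smad3; these join Smad4 and act on genes in the nucleus. Smad7 is an inhibitory Smad that binds the type I receptors and is itself induced by the pathway, as a feedback brake. In liver, TGF-β is known for driving matrix synthesis by stellate cells and for inducing the Snail, Zeb, Twist and Prrx factors, which repress epithelial genes in the epithelial-mesenchymal transition (EMT).

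Values are log2(quantile-normalized count + 1) from QuantSeq libraries, which place about 1 read near the 3′ end of each polyadenylated transcript, so levels can be set side by side between genes without a length correction. Differences (S7HP minus LHP) are in log2 units with limma's standard error (SE), and a gene was called, here written as risen or fallen, at a Benjamini-Hochberg adjusted p under 0.05 over all tested genes in limma. Each set of 6 values below is given in the order of LHP tumors 2, 3 and 6 and S7HP tumors 9, 11 and 12. Pairs of libraries had correlations, taken over tested genes and so not over independent replicates, of 0.939 to 0.945 inside the LHP group, 0.923 to 0.936 inside the S7HP group and 0.780 to 0.844 between groups. Totals per library were equalized by the authors' normalization, so the read depth of each library is unknown. Symbols listed at 0 numbered 7750 to 7908 in the LHP libraries and 8062 to 8392 in the S7HP libraries.

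Of the tested genes 2702 (19%) were called, 1346 (9.47%) higher and 1356 (9.54%) lower in S7HP, with a median absolute difference of 1.85. The total became 1479 without LHP tumor 3, 1465 without LHP tumor 6, 1594 without S7HP tumor 9 and 1768 without S7HP tumor 11. Calls that stayed in each of the 9 fits that left out 1 tumor numbered 568 (4%) higher and 574 (4.04%) lower, and the genes described with all 6 values below are of that kind unless said otherwise. The values of the groups did not overlap for 5991 genes (42.1%). Each count of list members risen or fallen below is to be read beside the 9.47% and 9.54% above.

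The gene that names the S7HP tumors was lower in them. Smad7 (GRCm38 chromosome 18, 75367529 to 75395935) was at 10.23, 10.50 and 9.49 in LHP and 6.46, 6.81 and 6.28 in S7HP. All 3 S7HP values lay below all 3 LHP values, and Smad7 fell by 3.55 ± 0.38 (limma, Benjamini-Hochberg adjusted p = 0.000691). Whether transcripts of the Smad7 construct end in the 3′ part read by such libraries is not said in the labels, and the level of Smad7 is therefore no check of the groups. Hras was at 9.73, 10.17 and 10.38 in LHP and 10.11, 10.91 and 10.98 in S7HP and Trp53 at 6.20, 6.63 and 6.28 in LHP and 5.96, 6.26 and 6.53 in S7HP; the groups overlapped for both, and neither was called.

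Feedback genes of the pathway were lower as well. Of 12 tested feedback and Smad corepressor genes, 5 (41.7%) fell and none rose, beside 9.54% of all tested genes called lower. Pmepa1 (chromosome 2, 173224458 to 173276533), a membrane protein that captures receptor-activated Smads, was at 13.03, 13.02 and 12.52 in LHP and 6.94, 6.54 and 7.92 in S7HP. Skil, which encodes the corepressor SnoN, was at 11.91, 12.15 and 11.84 in LHP and 9.60, 9.21 and 9.64 in S7HP. Its relative Ski was at 10.27, 11.02 and 10.60 in LHP and 9.11, 8.70 and 9.50 in S7HP. The 3 LHP tumors were high and the 3 S7HP tumors low for each, with no overlap. Pmepa1 fell by 5.73 ± 0.51, Skil fell by 2.48 ± 0.22 and Ski fell by 1.52 ± 0.27 (limma, Benjamini-Hochberg adjusted p = 0.000439, 0.000433 and 0.00627). Tgif1, the most abundant member that was not called, was at 13.32, 13.29 and 13.55 in LHP and 12.65, 12.40 and 12.90 in S7HP.

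Among the Smads themselves only Smad7 passed the test, 1 of 7 (14.3%, beside 9.54% of all tested genes called lower). The count of Smad falls became 2 without tumor 14 of S7HP+Snail. Smad2, Smad3 and Smad4, the signal carriers of this route, differed by -0.61, -0.67 and 0.17 (limma, Benjamini-Hochberg adjusted p = 0.19, 0.133 and 0.709). Smad3 values were 10.20, 10.23 and 10.13 in LHP and 9.10, 9.52 and 9.93 in S7HP, without overlap. Smad5 was at 12.25, 12.37 and 11.73 in LHP and 10.83, 10.67 and 10.58 in S7HP, which also did not overlap and did not pass (limma, Benjamini-Hochberg adjusted p = 0.0969). The shared estimate of spread also took in the S7HP+Snail tumors, where Smad5 was at 12.225, 14.447 and 11.993. Smad1 and Smad6 differed by -0.40 and -0.55 and overlapped between the groups.

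Called ligands went in both directions. Of 6 tested ligand genes, 2 (33.3%) fell and 1 (16.7%) rose, beside 9.54% and 9.47% of all tested genes. The count of fallen ligands became 1 without tumor 2, 3 or 6 of LHP or tumor 11 of S7HP. Inhba (chromosome 13, 16011851 to 16031621), which encodes the subunit of activin A, was at 13.80, 13.32 and 12.17 in LHP and 8.96, 7.55 and 8.26 in S7HP. Gdf15, a stress-induced member of the superfamily, was at 10.50, 9.61 and 9.75 in LHP and 12.16, 12.35 and 11.69 in S7HP. Inhba fell by 4.84 ± 0.78 and Gdf15 rose by 2.11 ± 0.36, in 3 of 3 S7HP tumors each (limma, Benjamini-Hochberg adjusted p = 0.00423 and 0.0049). Tgfb3 fell by 2.08 ± 0.51 (limma, Benjamini-Hochberg adjusted p = 0.0203), a call that was lost without tumor 2, 3 or 6 of LHP or tumor 11 of S7HP, where the adjusted p reached 0.0648. Tgfb2 was at 7.63, 8.05 and 7.85 in LHP and 6.09, 5.90 and 5.18 in S7HP, without overlap and without passing (limma, Benjamini-Hochberg adjusted p = 0.0677).

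Genes whose products store, release or bind the ligands were mostly lower. Of 12 such genes, 7 fell and none rose, and the median difference was -1.83 against 0.02 over all tested genes. Fstl3, a secreted activin antagonist, was at 9.09, 9.38 and 9.12 in LHP and 6.46, 6.09 and 7.23 in S7HP. Fstl1, a secreted glycoprotein of the same domain family, was at 12.64, 13.15 and 13.11 in LHP and 9.94, 8.96 and 10.33 in S7HP. Fbn1, the microfibril protein fibrillin 1 to which latent complexes attach, was at 10.74, 11.06 and 11.74 in LHP and 8.29, 7.77 and 8.73 in S7HP, and Ltbp4, a latent TGF-β binding protein, at 8.48, 9.28 and 8.67 in LHP and 7.40, 6.51 and 6.93 in S7HP. S7HP tumor 11 was the lowest of the 6 for each of these 4 genes. They fell by 2.61 ± 0.44, 3.22 ± 0.34, 2.92 ± 0.41 and 1.86 ± 0.35 (SE, in that order; limma, Benjamini-Hochberg adjusted p = 0.00476, 0.000659, 0.00213 and 0.00749). Decorin, Dcn, was at 12.01, 13.10 and 12.16 in LHP and 12.22, 11.26 and 11.27 in S7HP, with overlap.

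Of 9 receptor genes, 2 (22.2%) fell and none rose, beside 9.54% and 9.47% of all tested genes. The receptor count became 1 without tumor 3 or 6 of LHP or tumor 9 or 11 of S7HP. Acvr1, the type I receptor ALK2, was at 11.10, 11.63 and 11.18 in LHP and 8.99, 9.68 and 9.13 in S7HP and fell by 2.03 ± 0.30 (limma, Benjamini-Hochberg adjusted p = 0.00249). Acvrl1, the endothelial type I receptor ALK1, fell by 1.76 ± 0.50 (limma, Benjamini-Hochberg adjusted p = 0.0373), a call lost without tumor 3 or 6 of LHP or tumor 9 or 11 of S7HP. The receptors of TGF-β itself differed by -0.40 for Tgfbr1 and 0.68 for Tgfbr2, which was at 9.90, 10.34 and 10.18 in LHP and 10.96, 10.62 and 10.89 in S7HP and did not pass (limma, Benjamini-Hochberg adjusted p = 0.0679). Tgfbr3, Acvr1b, Acvr2a, Acvr2b and Eng overlapped between the groups, with differences from -0.20 to 0.34.

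Of 29 genes listed here as TGF-β induced, 15 fell and 1 rose, with a median of -1.43. The single rise, Id2, was lost without tumor 2 or 6 of LHP or tumor 9 or 12 of S7HP. Col7a1 (chromosome 9, 108953586 to 108984875), the collagen of epithelial anchoring fibrils, was at 11.37, 11.64 and 11.77 in LHP and 3.97, 4.08 and 5.14 in S7HP. It fell by 7.20 ± 0.41 (limma, Benjamini-Hochberg adjusted p = 4.01e-05), the smallest adjusted p of the list. Adam19 and Adam12, membrane metalloproteases, were at 11.13, 11.11 and 11.87 in LHP and 8.22, 7.31 and 8.76 in S7HP and at 7.69, 7.58 and 7.81 in LHP and 4.10, 4.89 and 4.50 in S7HP. Adam19 fell by 3.28 ± 0.37 and Adam12 fell by 3.20 ± 0.53 (limma, Benjamini-Hochberg adjusted p = 0.000809 and 0.00459). Id2, the riser, is an inhibitor of basic helix-loop-helix factors, and whether TGF-β induces it in these tumors was not tested. Junb, an immediate early target, was at 13.93, 13.75 and 14.15 in LHP and 13.54, 12.26 and 13.47 in S7HP and did not pass.

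**Figure D1:**
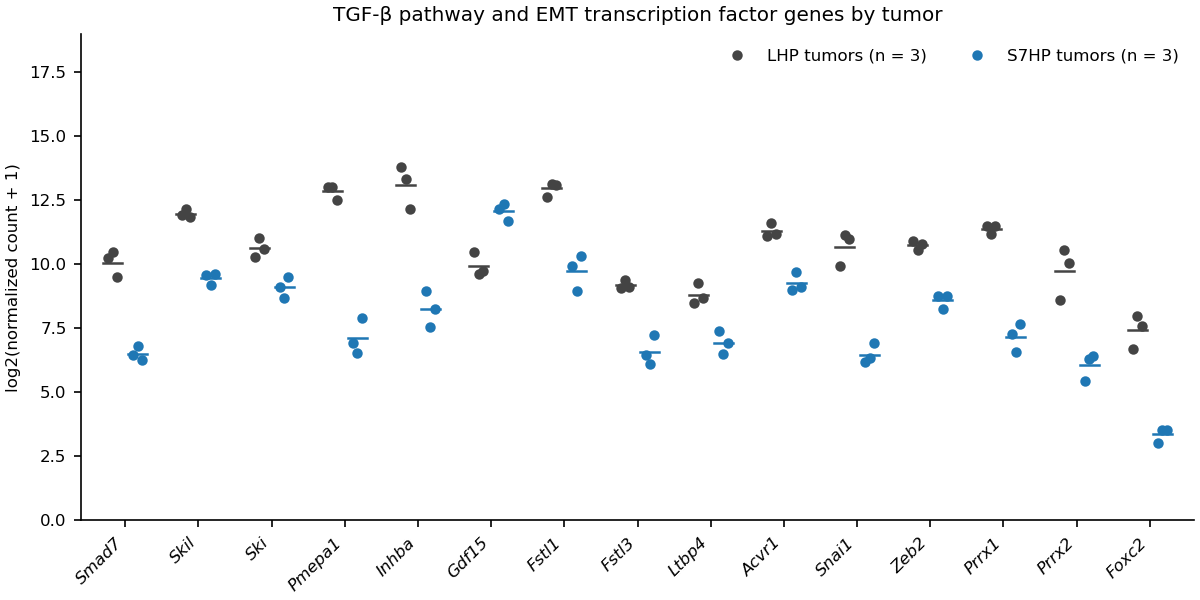
Each point is 1 tumor and each bar the mean of 3 tumors, with log2(normalized count + 1) on the vertical axis, for 15 genes of the TGF-β pathway and the EMT factors. LHP points lie above S7HP points for every gene drawn except Gdf15, where the order is the other way round.

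On the BMP side of the family, 7 (41.2%) fell and 2 (11.8%) rose of 17 tested genes. Over all tested genes 9.54% fell and 9.47% rose. The BMP count of falls became 4 without tumor 11 of S7HP. The BMP count of rises became 0 without tumor 2 or 6 of LHP or tumor 9 or 12 of S7HP and 1 without tumor 3 of LHP. Grem1, a secreted BMP antagonist, was at 8.01, 7.93 and 7.68 in LHP and 2.12, 2.98 and 0.42 in S7HP and fell by 6.04 ± 1.11 (limma, Benjamini-Hochberg adjusted p = 0.00691). Hamp, the iron hormone hepcidin that hepatocytes make in answer to BMP6, was at 9.52, 10.11 and 9.59 in LHP and 5.21, 7.39 and 5.43 in S7HP and fell by 3.73 ± 0.65 (limma, Benjamini-Hochberg adjusted p = 0.00599). Bmpr2, the type II receptor, fell by 1.33 ± 0.28, and Bmp1, a protease that trims procollagen, fell by 1.54 ± 0.23 (limma, Benjamini-Hochberg adjusted p = 0.0113 and 0.00275). Bmp7 was at 9.03, 10.78 and 10.15 in LHP and 7.94, 7.97 and 7.44 in S7HP, without overlap and without passing.

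All 16 tested EMT transcription factor genes had a lower mean in S7HP, and 9 of them fell. The count of 9 became 5 without tumor 3 of LHP. Falls that stayed in every fit leaving out 1 tumor were those of Snai1, Prrx1, Zeb2, Foxc2 and Prrx2. Snai1 (chromosome 2, 167538195 to 167542814), which encodes Snail, was at 9.93, 11.16 and 10.99 in LHP and 6.17, 6.34 and 6.92 in S7HP. The homeobox factor Prrx1 was at 11.48, 11.17 and 11.51 in LHP and 7.28, 6.57 and 7.66 in S7HP and Prrx2 at 8.61, 10.55 and 10.05 in LHP and 5.46, 6.32 and 6.42 in S7HP. Zeb2 was at 10.90, 10.56 and 10.81 in LHP and 8.74, 8.25 and 8.77 in S7HP, and the forkhead factor Foxc2 at 6.71, 7.97 and 7.59 in LHP and 3.04, 3.53 and 3.54 in S7HP. The groups did not overlap in any of the 5 genes, and the narrowest gap between them was 1.79 log2 units, for Zeb2. Snai1 fell by 4.22 ± 0.43, Prrx1 fell by 4.22 ± 0.57 and Zeb2 fell by 2.17 ± 0.36 (limma, Benjamini-Hochberg adjusted p = 0.000613, 0.00185 and 0.00465). Foxc2 fell by 4.05 ± 0.76 and Prrx2 fell by 3.67 ± 0.73 (limma, Benjamini-Hochberg adjusted p = 0.00749 and 0.00896). Twist1, Tcf4, Sox4 and Sox9 also fell, with calls that were lost without tumor 2 or 3 of LHP or tumor 9 or 11 of S7HP for Twist1, without tumor 3 or 6 of LHP or tumor 11 of S7HP for Tcf4, without tumor 2, 3 or 6 of LHP or tumor 9 or 11 of S7HP or tumor 13 of S7HP+Snail for Sox4 and without tumor 2 or 3 of LHP or tumor 11 of S7HP for Sox9. Snai2 was at 7.33, 7.27 and 6.77 in LHP and 6.67, 4.70 and 7.73 in S7HP, with overlap, and Zeb1 at 8.47, 8.89 and 8.09 in LHP and 7.56, 7.82 and 7.75 in S7HP, without overlap but not called (limma, Benjamini-Hochberg adjusted p = 0.463 and 0.141).

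Of 15 regulators of epithelial transcription and splicing, 4 (26.7%) rose and none fell, beside 9.47% of all tested genes called higher. This count became 2 without tumor 9 of S7HP. The 2 that stayed in every fit leaving out 1 tumor were Foxa2 (chromosome 2, 148042877 to 148046969) and Foxa3, forkhead pioneer factors of gut and liver epithelium. Foxa2 was at 9.88, 9.08 and 9.17 in LHP and 12.11, 12.86 and 12.92 in S7HP and rose by 3.25 ± 0.48 (limma, Benjamini-Hochberg adjusted p = 0.0028). Foxa3 was at 8.82, 9.46 and 9.13 in LHP and 11.80, 11.02 and 11.25 in S7HP and rose by 2.22 ± 0.28 (limma, Benjamini-Hochberg adjusted p = 0.00134). Klf4, the most abundant uncalled member, was at 11.37, 10.99 and 10.17 in LHP and 11.22, 10.54 and 11.49 in S7HP, with overlap.

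Contractile and matrix genes gave large blocks of falls. Of 21 contractile and smooth muscle genes, 13 fell and none rose. The contractile count became 8 without tumor 3 or 6 of LHP or tumor 9 of S7HP. Acta2, the smooth muscle actin of activated stellate cells, was at 11.91, 13.23 and 13.58 in LHP and 9.997, 9.99 and 9.69 in S7HP. Tnnt2, cardiac troponin T, was at 13.02, 13.57 and 12.48 in LHP and 8.47, 7.13 and 6.72 in S7HP. Flna, the actin crosslinker filamin A, was at 14.83, 15.88 and 15.82 in LHP and 13.09, 13.11 and 13.31 in S7HP, and Cnn1, calponin 1, at 7.17, 7.45 and 7.56 in LHP and 4.20, 4.50 and 3.96 in S7HP. The S7HP tumors were low and close together for Acta2, Flna and Cnn1, with ranges of 0.31, 0.23 and 0.54 log2 units, and wider apart for Tnnt2, with 1.75. Acta2 fell by 3.02 ± 0.51, Tnnt2 fell by 5.58 ± 0.70, and Flna fell by 2.34 ± 0.34 (limma, Benjamini-Hochberg adjusted p = 0.00499, 0.00133 and 0.00249).

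Among 22 genes of the YAP pathway, which reads mechanical load and cell density, 8 fell and none rose. The YAP count became 4 without tumor 2, 3 or 6 of LHP and 5 without tumor 11 of S7HP. Tead1, the DNA-binding partner of YAP, was at 11.99, 11.46 and 11.51 in LHP and 9.56, 9.65 and 9.85 in S7HP and fell by 1.97 ± 0.33 (limma, Benjamini-Hochberg adjusted p = 0.00499). Wisp1, a secreted CCN protein, fell by 3.00 ± 0.43, and the YAP-binding scaffold genes Amotl1 and Amotl2 fell by 3.18 ± 0.62 and 1.58 ± 0.33 (limma, Benjamini-Hochberg adjusted p = 0.00228, 0.00834 and 0.0113). Yap1 itself was at 10.98, 10.93 and 11.06 in LHP and 11.13, 11.75 and 11.67 in S7HP, slightly higher in S7HP without overlap, and did not pass.

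Collagens showed the highest share of falls among the 52 lists. Of 28 collagen genes, 20 fell and none rose (71.4%, beside 9.54% of all tested genes), with a median of -2.70. Col1a1 (chromosome 11, 94936224 to 94953042) and Col1a2, the 2 chains of type I collagen, were at 13.66, 13.67 and 13.75 in LHP and 10.40, 10.05 and 11.04 in S7HP and at 13.76, 13.88 and 14.43 in LHP and 10.82, 10.46 and 11.41 in S7HP. Col5a1, a chain of the type V collagen that nucleates those fibrils, was at 10.73, 11.98 and 12.14 in LHP and 7.51, 7.45 and 8.21 in S7HP. LHP tumors lay within 0.09 log2 units for Col1a1, and S7HP tumor 12 was the highest of its group for all 3 genes. Col1a1 fell by 3.19 ± 0.34, Col1a2 fell by 3.13 ± 0.43 and Col5a1 fell by 3.89 ± 0.39 (limma, Benjamini-Hochberg adjusted p = 0.000691, 0.00196 and 0.00059). Col18a1, of basement membranes, was at 12.70, 13.58 and 12.58 in LHP and 11.75, 10.67 and 11.54 in S7HP, without overlap and without passing.

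Markers of stellate cells and fibroblasts moved with these genes. Their summed level was 15.77, 16.12 and 16.20 in LHP and 13.78, 13.17 and 13.74 in S7HP, and 7 of 15 markers fell, 6 of which (Acta2, Col1a1, Col1a2, Col3a1, Des and Postn) also stand in the matrix or contractile lists. The stellate marker rises became 1 without tumor 14 or 15 of S7HP+Snail. Pdgfrb, a receptor of these cells, was at 10.10, 11.10 and 11.001 in LHP and 8.53, 7.61 and 8.15 in S7HP and fell by 2.64 ± 0.46 (limma, Benjamini-Hochberg adjusted p = 0.00584). Pdgfra was at 7.73, 7.19 and 8.10 in LHP and 8.002, 6.38 and 7.51 in S7HP, with overlap, as for Dcn. In bulk tumors fewer cells of a type and less RNA per cell cannot be told apart, and the part of these cells in the matrix result was not tested.

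Genes whose products assemble the matrix were lower too. Of 44 matrix glycoprotein and assembly genes, 25 fell and 1 rose. The glycoprotein count became 15 without tumor 3 or 6 of LHP. Has2, which synthesizes hyaluronan, was at 9.11, 10.60 and 9.92 in LHP and 3.43, 4.89 and 3.27 in S7HP and fell by 6.01 ± 0.61 (limma, Benjamini-Hochberg adjusted p = 0.00059). The antisense transcript Has2os overlaps that locus, and the counting strand is not given in the sources used here. Fbln2, fibulin 2, was at 11.44, 12.61 and 11.32 in LHP and 6.73, 6.01 and 7.12 in S7HP and fell by 5.17 ± 0.56 (limma, Benjamini-Hochberg adjusted p = 0.000739). Serpinh1, the collagen chaperone HSP47, was at 14.66, 15.56 and 15.12 in LHP and 12.17, 12.50 and 13.42 in S7HP and fell by 2.42 ± 0.35 (limma, Benjamini-Hochberg adjusted p = 0.00247). Spp1, osteopontin, was among the most abundant transcripts at 16.26, 17.32 and 16.44 in LHP and 17.05, 15.46 and 16.49 in S7HP, with overlap and no call.

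Of 26 laminin, nidogen and integrin genes, 11 fell and none rose. The laminin and integrin rises became 1 without tumor 11 of S7HP. The laminin and integrin count became 6 without tumor 2, 3 or 6 of LHP or tumor 12 of S7HP and 7 without tumor 11 of S7HP. Lamb1, the laminin β1 chain, was at 12.05, 12.001 and 11.91 in LHP and 8.14, 8.37 and 9.63 in S7HP and fell by 3.27 ± 0.36 (limma, Benjamini-Hochberg adjusted p = 0.000755). Itga5, the fibronectin receptor subunit, was at 7.10, 7.999 and 6.56 in LHP and 3.27, 3.90 and 4.38 in S7HP and fell by 3.37 ± 0.60 (limma, Benjamini-Hochberg adjusted p = 0.00608). Lama4 and Itga9 fell by 2.45 ± 0.47 and 1.68 ± 0.33 (limma, Benjamini-Hochberg adjusted p = 0.00802 and 0.00858), while Itga6, the laminin receptor subunit of epithelia, overlapped at 13.79, 14.83 and 13.73 in LHP and 13.01, 13.66 and 13.87 in S7HP.

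Among 29 matrix proteases and inhibitors, 8 (27.6%) fell and 1 (3.45%) rose. The protease count became 3 without tumor 11 of S7HP, 4 without tumor 6 of LHP and 5 without tumor 3 of LHP or tumor 9 of S7HP. The single protease rise was lost without tumor 2, 3 or 6 of LHP or tumor 9, 11 or 12 of S7HP. Mmp9, gelatinase B, was at 10.32, 11.38 and 9.12 in LHP and 7.38, 6.93 and 7.50 in S7HP and fell by 3.01 ± 0.60 (limma, Benjamini-Hochberg adjusted p = 0.00901). In the plasminogen system, which activates such proteases, 3 (23.1%) fell and 2 (15.4%) rose of 13, beside 9.54% and 9.47% of all tested genes. The plasminogen rises became 1 without tumor 2, 3 or 6 of LHP or tumor 9 or 12 of S7HP. Plau, the activator urokinase, was at 11.52, 12.34 and 11.51 in LHP and 6.69, 6.34 and 7.31 in S7HP and fell by 5.01 ± 0.69 (limma, Benjamini-Hochberg adjusted p = 0.00197). Its inhibitor Serpinb2 was at 8.86, 8.69 and 7.31 in LHP and 3.97, 0 and 2.19 in S7HP and fell by 6.23 ± 1.24 (limma, Benjamini-Hochberg adjusted p = 0.00876), with S7HP tumor 11 listed at 0. Serpinf2, the plasmin inhibitor that hepatocytes secrete, was at 8.18, 9.10 and 9.47 in LHP and 12.69, 12.20 and 11.79 in S7HP and rose by 3.31 ± 0.39 (limma, Benjamini-Hochberg adjusted p = 0.001).

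Epithelial junction genes moved the other way. Of 29 claudin and tight junction genes, 9 rose and 1 fell, with a median of 1.30. The count of junction rises became 5 without tumor 3 or 6 of LHP or tumor 9 of S7HP. The single junction fall was lost without tumor 2, 3 or 6 of LHP or tumor 11 or 12 of S7HP and became 2 without tumor 13 of S7HP+Snail. Ocln (chromosome 13, 100496507 to 100552718), the tight junction protein occludin, was at 3.56, 3.44 and 2.15 in LHP and 8.02, 7.31 and 7.90 in S7HP. Crb3 (chromosome 17, 57059105 to 57065918), a crumbs protein that sets apical polarity, was at 3.97, 4.60 and 4.60 in LHP and 7.90, 7.72 and 8.41 in S7HP. Cgn, cingulin, of the junction plaque, was at 6.75, 6.44 and 6.80 in LHP and 9.95, 9.95 and 10.54 in S7HP, and F11r (chromosome 1, 171437535 to 171464603), the adhesion molecule JAM-A, at 11.21, 10.33 and 10.52 in LHP and 13.50, 12.76 and 13.59 in S7HP. S7HP tumors were high and LHP tumors low for all 4, and the narrowest gap between the groups was 1.55 log2 units, for F11r. Ocln rose by 4.69 ± 0.54, Crb3 rose by 3.62 ± 0.57, Cgn rose by 3.48 ± 0.59 and F11r rose by 2.60 ± 0.45 (limma, Benjamini-Hochberg adjusted p = 0.000828, 0.00351, 0.00501 and 0.00571).

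Snail and Zeb proteins are known to bind the E-box CAGGTG. RefSeq promoters on GRCm38.p6, 300 bases long and spanning the gene's start, were available for 8 of the 9 junction genes that rose, and 5 (62.5%; Crb3, F11r, Marveld2, Ocln and Pard6b) hold CAGGTG or its reverse complement CACCTG. The same letters are in 2250 of 10698 tested genes with a promoter (21%), in 25.2% of genes called higher and in 19.6% of genes called lower. A gene counts once if any of its promoters matches. This motif and list were picked, after the matches were seen, from 6 motifs searched on both strands (CAGGTG, the Smad element CAGACA, the AP-1 site TGANTCA, the HNF4 core CAAAGTC, the antioxidant element core TGACNNNGC and the interferon element described with the interferon genes) over 25 sets of risen or fallen list members with at least 5 genes in the table. CAGGTG was in 0% to 62.5% of genes in these sets, with the risen hepatocyte markers at 60%. Other high shares were the AP-1 site in 7 of 9 risen plasma protein genes (77.8%, beside 6.93% of tested genes) and the Smad element in 4 of 5 fallen stellate cell markers (80%, beside 19.5%). Those 7 plasma protein genes include Serpina1a to Serpina1d, near-identical copies that were counted as separate genes. These matches are a description of the letters, not of binding. The promoters of Crb3, Ocln and F11r, the genes with a match whose call stayed in every fit leaving out 1 tumor, are shown (1 of 2 listed starts for Crb3 and Ocln) 5′ to 3′ on the gene's strand with each match in capitals:
Crb3, chr17:57061951-57062250 (+): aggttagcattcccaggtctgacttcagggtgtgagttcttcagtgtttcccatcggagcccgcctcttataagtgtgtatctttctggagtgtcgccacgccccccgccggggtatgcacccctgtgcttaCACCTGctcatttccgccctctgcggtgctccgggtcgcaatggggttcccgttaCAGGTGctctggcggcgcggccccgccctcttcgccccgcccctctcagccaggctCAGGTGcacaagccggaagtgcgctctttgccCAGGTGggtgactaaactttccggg
Ocln, chr13:100552449-100552748 (-): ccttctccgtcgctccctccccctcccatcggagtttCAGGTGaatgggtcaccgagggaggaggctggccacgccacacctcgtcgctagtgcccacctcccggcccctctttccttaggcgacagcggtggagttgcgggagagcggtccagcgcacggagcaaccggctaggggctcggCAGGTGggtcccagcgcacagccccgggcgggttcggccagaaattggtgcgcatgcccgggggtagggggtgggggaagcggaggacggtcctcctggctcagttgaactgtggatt
F11r, chr1:171437311-171437610 (+): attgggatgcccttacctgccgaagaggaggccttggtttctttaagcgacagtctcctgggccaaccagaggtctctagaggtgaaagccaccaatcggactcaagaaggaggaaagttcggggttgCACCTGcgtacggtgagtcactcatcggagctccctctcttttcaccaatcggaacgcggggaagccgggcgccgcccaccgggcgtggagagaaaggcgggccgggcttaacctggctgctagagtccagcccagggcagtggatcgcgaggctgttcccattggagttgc
Crb3 carries 4 matches, whose first bases lie at -118, -63, -7 and 26 from its start, Ocln 2, at -213 and -68, and F11r 1, at -122.

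Adherens junction and desmosome genes split. Of 20, 5 (25%) rose and 4 (20%) fell, beside 9.47% and 9.54% of all tested genes. The 5 rises became 1 without tumor 9 of S7HP, 2 without tumor 3 or 6 of LHP or tumor 11 of S7HP and 3 without tumor 12 of S7HP. The 4 falls became 1 without tumor 2, 3 or 6 of LHP or tumor 11 of S7HP and 2 without tumor 9 or 12 of S7HP. Cdh1, E-cadherin and a textbook Snail target, was at 11.96, 11.08 and 11.11 in LHP and 14.26, 14.18 and 14.95 in S7HP and rose by 3.08 ± 0.77 (limma, Benjamini-Hochberg adjusted p = 0.023), a call that stayed in 4 of the 9 fits that left out 1 tumor. Ppl, the desmosome-linked plakin periplakin, rose by 2.64 ± 0.44, and Cdh13, T-cadherin, fell by 3.57 ± 0.66 (limma, Benjamini-Hochberg adjusted p = 0.00447 and 0.00707). Cdh2, N-cadherin, overlapped at 10.74, 10.16 and 10.31 in LHP and 10.45, 9.86 and 9.78 in S7HP. Cdh1 and Cdh2 were named after their values were seen.

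Connexin genes, which encode gap junction channels, moved in opposite directions. Gja1 (chromosome 10, 56377330 to 56402513), connexin 43 of mesenchymal cells, was at 11.06, 11.34 and 11.25 in LHP and 6.98, 6.63 and 7.43 in S7HP. Gjc1, connexin 45, was at 11.22, 10.88 and 10.91 in LHP and 6.11, 5.84 and 6.60 in S7HP, and Gjb1, connexin 32 and the main connexin of hepatocytes, at 11.10, 11.45 and 11.60 in LHP and 14.57, 13.36 and 13.88 in S7HP. In LHP the 3 genes stood at similar levels, and in S7HP Gjb1 exceeded Gja1 and Gjc1 in each tumor. These 3 were the calls among 10 connexins, with 20% fallen and 10% risen, beside 9.54% and 9.47% of all tested genes. Gja1 fell by 4.20 ± 0.41, Gjc1 fell by 4.82 ± 0.57 and Gjb1 rose by 2.55 ± 0.35 (limma, Benjamini-Hochberg adjusted p = 0.00059, 0.00108 and 0.00172). Of 12 keratin and intermediate filament genes, 3 (25%) fell and none rose. The filament falls became 1 without tumor 3 of LHP. The filament rises became 1 without tumor 2 of LHP and 4 without tumor 14 of S7HP+Snail. Nes, nestin, was at 12.17, 12.25 and 12.43 in LHP and 8.05, 10.27 and 9.91 in S7HP and fell by 2.87 ± 0.51 (limma, Benjamini-Hochberg adjusted p = 0.00605), and the keratin Krt18 was at 13.55, 12.14 and 12.54 in LHP and 13.73, 13.92 and 14.01 in S7HP without a call.

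**Figure D2:**
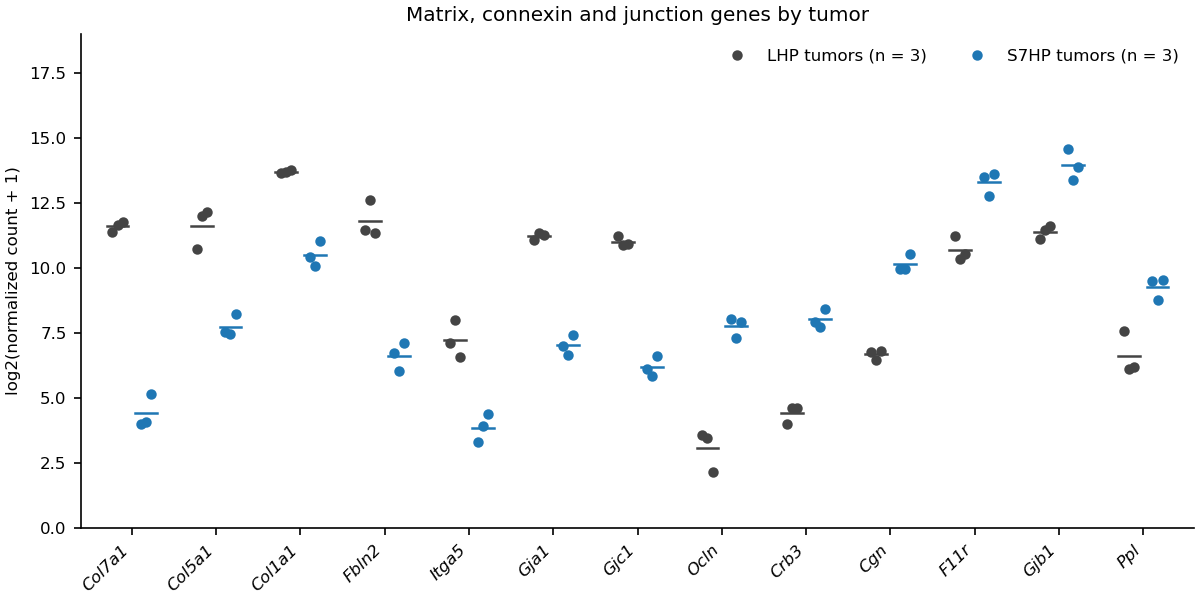
Values of 13 matrix, connexin and junction genes are plotted per tumor as log2(normalized count + 1), with 3 points a group and bars at the means. From Col7a1 to Gjc1 the LHP points are the higher ones, and from Ocln to Ppl the S7HP points are.

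Transcription factors that set liver identity were higher in S7HP. Of 29, 14 rose and 2 fell, with a median of 1.54. The liver factor rises became 9 without tumor 9 of S7HP. Hnf4a (chromosome 2, 163506808 to 163572910), the nuclear receptor at the centre of the hepatocyte network, was at 6.73, 7.47 and 6.34 in LHP and 10.19, 9.91 and 9.61 in S7HP. Onecut1, also called HNF6, was at 3.69, 4.86 and 5.90 in LHP and 9.46, 8.35 and 8.19 in S7HP. Both genes had their 3 S7HP values above their 3 LHP values. Hnf4a rose by 3.05 ± 0.34 and Onecut1 rose by 3.85 ± 0.57 (limma, Benjamini-Hochberg adjusted p = 0.000809 and 0.00263). The 2 falls were in Nr2f1 and Nr2f2, the COUP-TF orphan receptors, which fell by 4.35 ± 0.69 and 2.12 ± 0.38 (limma, Benjamini-Hochberg adjusted p = 0.00395 and 0.00641). Cebpb overlapped at 13.37, 13.72 and 13.25 in LHP and 13.31, 12.88 and 13.35 in S7HP. The COUP-TF genes were named after their values were seen.

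Secreted hepatocyte products were higher too. Of 29 plasma protein genes, 11 rose and none fell. The plasma protein count became 7 without tumor 2 or 3 of LHP. Alb, albumin, was at 13.46, 14.07 and 12.98 in LHP and 17.32, 15.64 and 15.71 in S7HP and rose by 2.72 ± 0.52 (limma, Benjamini-Hochberg adjusted p = 0.00821). Rbp4, the retinol carrier, was at 11.46, 12.69 and 12.27 in LHP and 15.22, 15.22 and 14.68 in S7HP and rose by 2.90 ± 0.36 (limma, Benjamini-Hochberg adjusted p = 0.00115). Ambp and the transferrin gene Trf rose by 2.52 ± 0.27 and 2.02 ± 0.34 (limma, Benjamini-Hochberg adjusted p = 0.000668 and 0.00506). Serpina1a to Serpina1d, near-identical copies that may share reads, make up 4 of the 11 rises. Ahsg, fetuin A, was at 15.34, 16.30 and 15.64 in LHP and 18.29, 16.05 and 16.44 in S7HP, with S7HP tumor 9 far above the other 5 and no call.

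The summed level of 14 hepatocyte markers was 16.18, 17.04 and 16.46 in LHP and 19.41, 17.44 and 17.65 in S7HP, with 5 markers risen and 1 (Hamp) fallen. The marker rises became 3 without tumor 2 or 3 of LHP. Ahsg alone made up 38.1% to 59.9% of the sum. S7HP tumor 9 stood highest. For Alb, Apom and Afp the same tumor was the highest of the 6. The part of hepatocyte content in the liver gene results was not tested.

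Of 19 apolipoprotein genes and lipid transport partners, 8 rose and none fell. The lipid transport falls became 1 without tumor 14 of S7HP+Snail and 2 without tumor 2 of LHP. Apoc2 (chromosome 7, 19671579 to 19677941), the activator of lipoprotein lipase, was at 9.07, 9.46 and 9.03 in LHP and 15.34, 14.55 and 14.79 in S7HP and rose by 5.71 ± 0.24 (limma, Benjamini-Hochberg adjusted p = 8.11e-06). The readthrough symbol Apoc4-apoc2 shares its 3′ end, so these reads may be split or counted for both. Apom, which carries sphingosine 1-phosphate on HDL, was at 7.40, 8.46 and 8.998 in LHP and 13.71, 11.65 and 11.89 in S7HP and rose by 4.13 ± 0.58 (limma, Benjamini-Hochberg adjusted p = 0.00231). Mttp, which loads lipid onto apolipoprotein B, was at 7.87, 8.16 and 8.26 in LHP and 11.97, 10.81 and 10.43 in S7HP and rose by 2.97 ± 0.52 (limma, Benjamini-Hochberg adjusted p = 0.00575). Apoe was at 14.94, 15.76 and 15.76 in LHP and 16.85, 16.75 and 16.30 in S7HP, without overlap and without passing. Of 34 coagulation and complement genes, 11 rose and none fell. The coagulation and complement count became 7 without tumor 2 or 3 of LHP. Cfi, complement factor I, was at 8.62, 9.30 and 9.08 in LHP and 13.14, 12.13 and 11.85 in S7HP and rose by 3.37 ± 0.38 (limma, Benjamini-Hochberg adjusted p = 0.000809). F2, prothrombin, was at 10.78, 11.48 and 11.27 in LHP and 14.33, 12.92 and 12.98 in S7HP and rose by 2.24 ± 0.41 (limma, Benjamini-Hochberg adjusted p = 0.00667). C3 overlapped at 13.28, 13.89 and 14.09 in LHP and 14.95, 13.17 and 13.89 in S7HP.

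Of 25 acute phase genes, 4 (16%) rose and 1 (4%) fell, beside 9.47% and 9.54% of all tested genes. The acute phase rises became 1 without tumor 2, 3 or 6 of LHP or tumor 9 of S7HP and 2 without tumor 12 of S7HP. The acute phase falls became 3 without tumor 14 of S7HP+Snail. Crp was at 8.27, 8.54 and 8.60 in LHP and 11.26, 9.97 and 9.66 in S7HP and rose by 1.82 ± 0.38 (limma, Benjamini-Hochberg adjusted p = 0.0107), and haptoglobin, Hp, overlapped at 14.02, 14.62 and 14.67 in LHP and 15.71, 14.43 and 14.27 in S7HP.

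Genes of drug and steroid metabolism followed. Of 53 cytochrome P450 genes, 13 (24.5%) rose and none fell, beside 9.47% of all tested genes called higher. Among the risen, Cyp2a4, Cyp2b9, Cyp2b13 and Cyp3a41a were below 4 in every LHP tumor. They passed the filter on low values only through the groups where they were high, and nothing is read from their part of the count. The P450 falls became 1 without tumor 15 of S7HP+Snail. The P450 count became 5 without tumor 2 of LHP, 7 without tumor 6 of LHP and 8 without tumor 3 of LHP or tumor 9 of S7HP. Cyp3a13 was at 8.13, 8.49 and 8.36 in LHP and 12.36, 11.17 and 12.41 in S7HP and rose by 3.66 ± 0.40 (limma, Benjamini-Hochberg adjusted p = 0.000755). Cyp2a4, a steroid 15α-hydroxylase, was at 0.29, 2.26 and 3.27 in LHP and 10.72, 10.66 and 7.71 in S7HP and rose by 7.76 ± 0.94 (limma, Benjamini-Hochberg adjusted p = 0.00118); its near-identical copy Cyp2a5 was at 3.38, 3.98 and 5.94 in LHP and 7.78, 9.96 and 5.05 in S7HP and may share its reads. Cyp2b9 and Cyp2b13, another pair of close copies, were listed at 0 in all 3 LHP tumors and stood at 7.39, 6.16 and 4.50 and at 6.03, 4.38 and 4.57 in S7HP. Cyp51, of sterol synthesis, overlapped at 11.38, 11.07 and 11.49 in LHP and 11.58, 10.74 and 10.72 in S7HP.

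Of 38 glutathione transferase and NRF2-linked genes, 11 rose and 1 fell, and each of the 11 rises stayed in every fit leaving out 1 tumor. The single fall, Txnrd1, was lost without tumor 2, 3 or 6 of LHP or tumor 9 or 12 of S7HP. Gsta1 (chromosome 9, 78230656 to 78242684), an alpha class transferase, was at 5.52, 5.90 and 6.95 in LHP and 12.56, 13.35 and 12.46 in S7HP. Gsta4, which detoxifies lipid aldehydes, was at 6.39, 4.51 and 4.60 in LHP and 11.37, 11.77 and 11.04 in S7HP. Gstt2 and Gstt3, of the theta class, were at 6.30, 5.93 and 5.57 in LHP and 9.65, 9.62 and 9.66 in S7HP and at 5.68, 4.51 and 4.89 in LHP and 9.42, 8.66 and 8.93 in S7HP. All 3 S7HP tumors lay above all 3 LHP tumors in each of the 4, with the narrowest gap, 2.98 log2 units, for Gstt3. Gsta1 rose by 6.67 ± 0.44, Gsta4 rose by 6.22 ± 0.54, Gstt2 rose by 3.71 ± 0.37 and Gstt3 rose by 3.98 ± 0.41 (limma, Benjamini-Hochberg adjusted p = 7.26e-05, 0.000382, 0.00059 and 0.000613). Gsta1 and Gsta2 are near-identical and may share reads. Keap1, the repressor of NRF2, was at 11.32, 11.83 and 11.66 in LHP and 12.29, 11.96 and 12.31 in S7HP and did not pass.

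Of 23 UGT and sulfotransferase genes, 16 rose and none fell (69.6%, beside 9.47% of all tested genes). The Ugt1a isoform symbols share their last exons, so the 8 that rose are 1 signal in a 3′ library. Ugt1a6a, 1 of the 8, was at 9.40, 9.70 and 9.52 in LHP and 11.71, 11.62 and 10.82 in S7HP and rose by 1.85 ± 0.30 (limma, Benjamini-Hochberg adjusted p = 0.0039). Ugt2b34 was at 7.87, 8.65 and 9.32 in LHP and 12.28, 12.23 and 11.84 in S7HP and rose by 3.50 ± 0.44 (limma, Benjamini-Hochberg adjusted p = 0.00136). Of 21 hepatocyte transporter genes, 4 (19%) rose and none fell, beside 9.47% of all tested genes called higher. The transporter count became 2 without tumor 6 of LHP or tumor 9 or 11 of S7HP. The efflux pumps Abcc2 and Abcc3 rose by 2.37 ± 0.51 and 1.65 ± 0.32 (limma, Benjamini-Hochberg adjusted p = 0.0124 and 0.00838).

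Some genes of fetal liver rose beside adult ones. Of 22 fetal and oncofetal genes, 7 rose and none fell, while the median over the list was 0.06. The fetal gene falls became 1 without tumor 12 of S7HP. The fetal count became 4 without tumor 2 of LHP. Afp (chromosome 5, 90490737 to 90508907), alpha-fetoprotein, was at 7.61, 7.22 and 7.81 in LHP and 16.32, 14.14 and 14.65 in S7HP. H19, the imprinted noncoding RNA, was at 9.52, 10.22 and 8.26 in LHP and 16.62, 14.51 and 15.03 in S7HP. Igf2, the growth factor gene next to it, was at 7.32, 8.01 and 5.94 in LHP and 15.76, 10.79 and 12.28 in S7HP, and Gpc3, the heparan sulfate proteoglycan glypican 3, at 5.75, 6.30 and 5.52 in LHP and 10.80, 8.13 and 8.92 in S7HP. S7HP tumor 9 was the highest for all 4, and the S7HP tumors spanned 4.97 log2 units for Igf2. Afp rose by 7.49 ± 0.96, H19 rose by 6.05 ± 0.59, Igf2 rose by 5.85 ± 1.07 and Gpc3 rose by 3.42 ± 0.72 (limma, Benjamini-Hochberg adjusted p = 0.00147, 0.00059, 0.00691 and 0.0115). The antisense symbol Igf2os overlaps Igf2. Hmga1, a chromatin protein and the most abundant uncalled member, was at 17.60, 17.05 and 17.60 in LHP and 14.86, 16.44 and 16.75 in S7HP, lower in S7HP without overlap and without passing; near-identical copies of it may share its reads.

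Genes known from stomach and gut epithelium had the highest median of the lists, a rank that depends on the filter on low values. Of 28 matched genes 20 passed it, and a gene near 0 in LHP passed only through the groups where it was high. Among these 20, 9 rose and none fell, with a median of 4.46, and nothing is read from that rank. The gastric falls became 1 without tumor 12 of S7HP. Tff1 (chromosome 17, 31161395 to 31165277), a trefoil peptide that coats gastric mucosa, was at 5.68, 4.09 and 5.74 in LHP and 14.53, 13.01 and 14.36 in S7HP. Its relative Tff3 was at 3.56, 0 and 0 in LHP and 11.97, 9.72 and 11.34 in S7HP, with LHP tumors 3 and 6 listed at 0. Vil1, villin of the brush border, was at 6.39, 5.96 and 6.19 in LHP and 9.46, 10.10 and 9.41 in S7HP, and the tetraspanin gene Tspan8 at 11.40, 9.11 and 9.73 in LHP and 15.25, 14.83 and 15.43 in S7HP. Tff1 rose by 8.80 ± 1.08, Tff3 rose by 9.83 ± 0.96, Vil1 rose by 3.47 ± 0.40 and Tspan8 rose by 5.09 ± 0.59 (limma, Benjamini-Hochberg adjusted p = 0.0012, 0.00059, 0.000828 and 0.000977). Lgals4 overlapped at 7.06, 3.60 and 4.18 in LHP and 6.94, 6.56 and 7.84 in S7HP. Among 19 biliary and progenitor genes, 8 (42.1%) rose and 1 (5.26%) fell. The biliary rises became 5 without tumor 3 of LHP or tumor 9 of S7HP. The biliary fall, Sox9, was lost without tumor 2 or 3 of LHP or tumor 11 of S7HP. Prom1, the progenitor surface protein CD133, was at 9.35, 6.75 and 7.51 in LHP and 13.11, 12.82 and 11.997 in S7HP and rose by 4.77 ± 0.84 (limma, Benjamini-Hochberg adjusted p = 0.00615). Of 9 cholangiocyte markers 3 (33.3%) rose and 1 (11.1%) fell, beside 9.47% and 9.54% of all tested genes, and the median was 2.20. For 6 of them S7HP was higher without overlap, where 42.1% of all tested genes had no overlap in either direction. The cholangiocyte rises became 0 without tumor 9 of S7HP, 1 without tumor 3 or 6 of LHP or tumor 12 of S7HP and 5 without tumor 14 of S7HP+Snail. The cholangiocyte fall was lost without tumor 2 or 3 of LHP or tumor 11 of S7HP. Their summed level overlapped, at 16.55, 17.50 and 16.61 in LHP and 17.16, 15.72 and 16.69 in S7HP, and 81.6% to 93.2% of it was Spp1. The part of such cells in the biliary result was not tested. Of 20 pancreatic acinar genes 2 passed the filter on low values, Cela1 at 7.72, 6.88 and 6.80 in LHP and 9.74, 8.74 and 8.64 in S7HP and Pnliprp2, which was listed at 0 in all 3 LHP tumors and stood at 6.69, 1.29 and 8.06 in S7HP. A gene of that kind passes only through the groups where it is high, and nothing is read from the count. Neither the Cela1 call nor the Pnliprp2 call stayed in every fit leaving out 1 tumor.

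**Figure D3:**
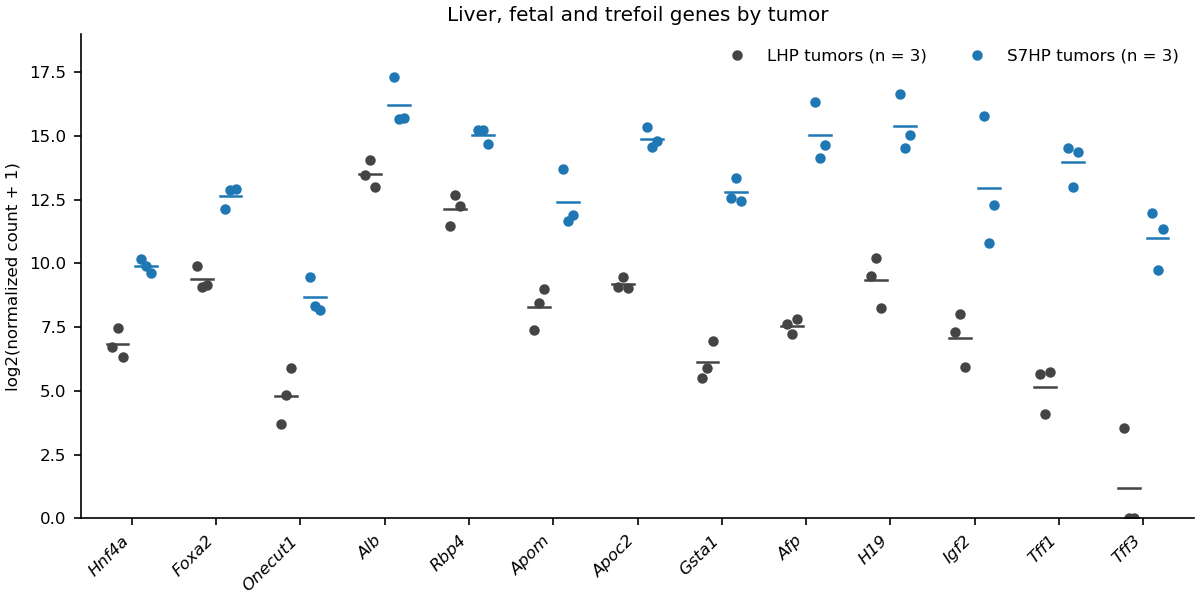
Liver, fetal and trefoil genes are plotted per tumor as log2(normalized count + 1), with bars at the means of 3 tumors. S7HP points lie above LHP points for all 13 genes, and the spread within S7HP is widest for Igf2.

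Of 24 Wnt genes and β-catenin targets, 5 (20.8%) fell and none rose, beside 9.54% of all tested genes called lower. The Wnt falls became 3 without tumor 2, 3 or 6 of LHP and 11 without tumor 14 of S7HP+Snail. The Wnt rises became 1 without tumor 14 or 15 of S7HP+Snail. The ligand genes Wnt5a and Wnt7b were at 11.76, 11.76 and 12.25 in LHP and 7.36, 8.08 and 8.24 in S7HP and at 11.88, 12.80 and 11.52 in LHP and 6.36, 8.34 and 8.03 in S7HP, and the Wnt modulator Dkk2 at 10.18, 7.83 and 9.21 in LHP and 3.43, 2.08 and 0.42 in S7HP. Wnt5a fell by 4.03 ± 0.40, Wnt7b fell by 4.49 ± 0.84 and Dkk2 fell by 7.10 ± 1.15 (limma, Benjamini-Hochberg adjusted p = 0.00059, 0.00756 and 0.00423). Ccnd1, cyclin D1, was at 14.88, 15.64 and 15.32 in LHP and 13.82, 13.45 and 14.58 in S7HP, without overlap and without passing.

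Of 18 Notch genes, 6 (33.3%) fell and none rose, beside 9.54% of all tested genes called lower. The Notch count became 2 without tumor 3 of LHP or tumor 11 of S7HP and 3 without tumor 6 of LHP or tumor 9 of S7HP. Jag1 (chromosome 2, 137081456 to 137116644), the ligand of bile duct formation, was at 13.60, 13.93 and 14.02 in LHP and 9.99, 8.89 and 9.22 in S7HP and fell by 4.49 ± 0.31 (limma, Benjamini-Hochberg adjusted p = 8.69e-05), while the target Hes1 overlapped at 10.85, 10.85 and 10.13 in LHP and 10.74, 10.36 and 10.28 in S7HP. Of 15 IGF system genes, 4 (26.7%) rose and 2 (13.3%) fell, beside 9.47% and 9.54% of all tested genes. The IGF rises became 1 without tumor 2 of LHP or tumor 9 or 12 of S7HP and 2 without tumor 3 or 6 of LHP or tumor 11 of S7HP. The IGF falls became 1 without tumor 2, 3 or 6 of LHP. Igf1r, the receptor that IGF2 activates, was at 9.38, 9.67 and 9.06 in LHP and 5.73, 3.74 and 6.20 in S7HP and fell by 4.15 ± 0.60 (limma, Benjamini-Hochberg adjusted p = 0.00247). Of 11 EGF family genes, 2 (18.2%) rose and none fell, beside 9.47% of all tested genes called higher. The EGF family falls became 1 without tumor 14 or 15 of S7HP+Snail. The EGF family count became 1 without tumor 6 of LHP or tumor 9 or 12 of S7HP. Nrg4, an ErbB4 ligand, was at 2.94, 3.86 and 3.42 in LHP and 9.02, 6.48 and 6.38 in S7HP and rose by 3.89 ± 0.82 (limma, Benjamini-Hochberg adjusted p = 0.0116). Of 31 genes of RAS-ERK output and AP-1, 3 (9.68%) fell and 1 (3.23%) rose. Of 25 genes of PDGF, FGF and VEGF signaling, 4 (16%) fell and 1 (4%) rose. Over all tested genes 9.54% fell and 9.47% rose, and the share of falls in the RAS-ERK list is near that. The RAS-ERK rise was lost without tumor 3 or 6 of LHP or tumor 9 or 11 of S7HP. The RAS-ERK falls became 0 without tumor 3 of LHP, 1 without tumor 2 or 6 of LHP or tumor 11 of S7HP and 7 without tumor 14 of S7HP+Snail. The PDGF, FGF and VEGF rise was lost without tumor 2 or 6 of LHP or tumor 9, 11 or 12 of S7HP or tumor 13 of S7HP+Snail. The PDGF, FGF and VEGF falls became 1 without tumor 11 of S7HP and 2 without tumor 3 or 6 of LHP. Vegfa overlapped at 13.77, 14.36 and 13.21 in LHP and 14.15, 13.46 and 13.99 in S7HP.

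Genes induced by interferon were higher in S7HP. Of 45, 21 rose and none fell (46.7%, beside 9.47% of all tested genes), with a median of 1.18. The interferon count became 10 without tumor 3 of LHP and 12 without tumor 2 of LHP or tumor 12 of S7HP. Usp18, which removes the ubiquitin-like protein ISG15 and dampens the receptor, was at 4.11, 5.44 and 5.92 in LHP and 8.31, 8.87 and 8.70 in S7HP. Rsad2, the antiviral enzyme viperin, was at 7.90, 6.93 and 7.92 in LHP and 9.37, 9.27 and 9.99 in S7HP, and Irf7, the factor that amplifies the response, at 7.01, 7.47 and 7.35 in LHP and 8.32, 9.34 and 9.17 in S7HP. Ifi27 was at 10.77, 11.19 and 11.04 in LHP and 13.22, 13.15 and 12.99 in S7HP. Every S7HP tumor exceeded every LHP tumor in these 4 genes. Usp18 rose by 3.47 ± 0.43, Rsad2 rose by 1.96 ± 0.36, Irf7 rose by 1.67 ± 0.32 and Ifi27 rose by 2.13 ± 0.28 (limma, Benjamini-Hochberg adjusted p = 0.0012, 0.00691, 0.00788 and 0.00153). Irf1 overlapped at 11.14, 11.59 and 13.26 in LHP and 12.13, 12.92 and 13.13 in S7HP, with LHP tumor 6 level with S7HP.

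The interferon-stimulated response element was searched as GAAA, any 2 bases and GAAA on both strands. It is in the promoter of 9 of 16 risen interferon genes with a RefSeq promoter (56.2%) and of 416 of 10698 tested genes (3.89%), picked in the same way as the E-box above, with 33.3% in the risen MHC class I genes as the next highest share; the list's genes are known partly for such sites. Cxcl10 and Isg15, chosen after their values were seen as well-known members with a match, are shown as above:
Cxcl10, chr5:92348840-92349139 (-): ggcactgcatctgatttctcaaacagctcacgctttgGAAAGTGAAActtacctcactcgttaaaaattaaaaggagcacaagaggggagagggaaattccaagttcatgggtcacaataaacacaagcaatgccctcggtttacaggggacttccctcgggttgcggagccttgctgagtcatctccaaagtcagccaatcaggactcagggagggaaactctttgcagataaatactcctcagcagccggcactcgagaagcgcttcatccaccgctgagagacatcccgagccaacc
Isg15, chr4:156200769-156201068 (-): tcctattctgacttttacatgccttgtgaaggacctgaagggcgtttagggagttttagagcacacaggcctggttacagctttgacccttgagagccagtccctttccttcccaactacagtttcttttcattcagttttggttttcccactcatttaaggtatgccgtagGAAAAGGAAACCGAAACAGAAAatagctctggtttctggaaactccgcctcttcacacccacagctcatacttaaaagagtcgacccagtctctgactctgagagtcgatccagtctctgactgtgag
The match of Cxcl10 lies at -213, and Isg15 has 3 overlapping matches, at -78, -72 and -66, printed as 1 run of capitals. Cxcl10, the chemokine that draws T cells, was at 5.48, 4.27 and 7.37 in LHP and 9.15, 8.72 and 9.01 in S7HP and rose by 3.26 ± 0.66 (limma, Benjamini-Hochberg adjusted p = 0.00982). Isg15 was at 8.73, 8.31 and 9.35 in LHP and 10.01, 10.75 and 10.74 in S7HP and rose by 1.70 ± 0.33 (limma, Benjamini-Hochberg adjusted p = 0.008).

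Of 21 MHC class I presentation genes, 8 rose and none fell. The class I count became 3 without tumor 3 of LHP, 4 without tumor 9 of S7HP and 5 without tumor 12 of S7HP. Nlrc5, the class I transactivator, was at 4.57, 4.19 and 5.67 in LHP and 7.52, 6.68 and 7.09 in S7HP and rose by 2.29 ± 0.48 (limma, Benjamini-Hochberg adjusted p = 0.011). H2-Q4 was at 4.78, 4.51 and 5.84 in LHP and 8.71, 7.53 and 8.90 in S7HP and rose by 3.34 ± 0.48 (limma, Benjamini-Hochberg adjusted p = 0.00227); class I genes are close copies of each other and may share reads. The proteasome activator gene Psme1 rose by 1.15 ± 0.19 (limma, Benjamini-Hochberg adjusted p = 0.00461). None of 8 MHC class II genes was called, and their median was -1.06. The class II falls became 1 without tumor 14 of S7HP+Snail. The summed T and NK cell markers were at 7.001, 6.50 and 9.45 in LHP and 8.38, 8.05 and 9.30 in S7HP, and macrophage markers at 13.41, 13.45 and 13.91 and at 13.03, 12.75 and 13.05. The part of immune cells in the interferon result was not tested.

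Of 35 chemokine genes, 5 (14.3%) rose and 4 (11.4%) fell, near the 9.47% and 9.54% of all tested genes. The chemokine rises became 2 without tumor 3 of LHP and 3 without tumor 9 of S7HP. Ccl20, the ligand of CCR6, was at 3.38, 2.26 and 4.98 in LHP and 10.38, 9.31 and 10.33 in S7HP and rose by 6.47 ± 0.79 (limma, Benjamini-Hochberg adjusted p = 0.0012). Ccl17 and Ccl24, ligands of CCR4 and CCR3, were at 8.53, 9.17 and 8.93 in LHP and 4.20, 5.67 and 5.95 in S7HP and at 10.52, 10.32 and 12.21 in LHP and 6.27, 7.43 and 8.22 in S7HP. Ackr3 (chromosome 1, 90203980 to 90216751), the scavenger receptor of CXCL12, was at 12.16, 13.001 and 11.87 in LHP and 7.92, 6.46 and 6.64 in S7HP. These 3 genes fell by 3.60 ± 0.49, 3.71 ± 0.65 and 5.34 ± 0.58 (limma, Benjamini-Hochberg adjusted p = 0.00169, 0.00593 and 0.000755).

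Metabolic lists had more rises than falls, with risen shares from 7.14% for cholesterol genes to 30% for lipogenesis, beside 9.47% of all tested genes. In lipogenesis and lipid droplets, 9 (30%) rose and 2 (6.67%) fell of 30. The lipogenic rises became 3 without tumor 3 or 6 of LHP or tumor 11 of S7HP and 5 without tumor 9 of S7HP. The lipogenic falls became 1 without tumor 6 of LHP or tumor 9 or 12 of S7HP. Cidec, which fuses lipid droplets, was at 1.22, 2.26 and 1.22 in LHP and 8.08, 8.13 and 8.34 in S7HP and rose by 6.62 ± 0.48 (limma, Benjamini-Hochberg adjusted p = 0.00013). Dgat2, of the last step of triglyceride synthesis, was at 6.86, 7.59 and 7.49 in LHP and 10.38, 10.22 and 10.79 in S7HP and rose by 3.15 ± 0.30 (limma, Benjamini-Hochberg adjusted p = 0.00059). Mlxipl, the glucose-responsive factor ChREBP, rose by 2.98 ± 0.44, and the desaturase gene Scd2 fell by 1.29 ± 0.27 (limma, Benjamini-Hochberg adjusted p = 0.00249 and 0.0116). Plin2, the major droplet coat protein, overlapped at 13.32, 12.92 and 13.43 in LHP and 13.004, 12.84 and 12.99 in S7HP.

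In fatty acid oxidation and ketogenesis, 8 (29.6%) rose and none fell of 27, beside 9.47% of all tested genes called higher. The oxidation count became 2 without tumor 9 of S7HP, 3 without tumor 6 of LHP and 4 without tumor 2 or 3 of LHP or tumor 11 of S7HP. Acadm, the medium-chain dehydrogenase, was at 8.52, 8.64 and 8.82 in LHP and 10.94, 10.22 and 10.28 in S7HP and rose by 1.82 ± 0.24 (limma, Benjamini-Hochberg adjusted p = 0.00163). Of 34 urea cycle and amino acid genes 6 (17.6%) rose and none fell, and of 33 glycolysis and gluconeogenesis genes 5 (15.2%) rose and none fell. The urea cycle count became 2 without tumor 3 or 6 of LHP or tumor 9 of S7HP. The glycolysis count became 3 without tumor 2 or 6 of LHP or tumor 9 or 11 of S7HP. Pklr, liver pyruvate kinase, and Khk, ketohexokinase, rose by 3.08 ± 0.67 and 2.10 ± 0.40 (limma, Benjamini-Hochberg adjusted p = 0.0128 and 0.00744), while Ldha overlapped at 14.69, 14.59 and 13.94 in LHP and 14.63, 14.94 and 14.62 in S7HP. Of 28 cholesterol genes 2 rose and none fell, a share near the 9.47% of all tested genes. The cholesterol rises became 1 without tumor 3 or 6 of LHP or tumor 9 or 11 of S7HP. The cholesterol falls became 1 without tumor 13 of S7HP+Snail and 2 without tumor 9 of S7HP. Of 21 unfolded protein response genes 6 (28.6%) rose and none fell. The unfolded protein rises became 2 without tumor 6 of LHP and 3 without tumor 3 of LHP or tumor 9 of S7HP. The unfolded protein falls became 1 without tumor 2 of LHP. Trib3 and Xbp1 rose by 2.08 ± 0.35 and 1.27 ± 0.24 (limma, Benjamini-Hochberg adjusted p = 0.0049 and 0.00784), and the chaperone gene Hspa5 overlapped at 16.20, 15.99 and 16.20 in LHP and 16.49, 17.32 and 16.13 in S7HP.

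Proliferation genes showed few calls. Of 37, 3 fell and 1 rose, shares at or below those over all tested genes. The proliferation falls became 7 without tumor 11 of S7HP. The proliferation rise was lost without tumor 2, 3 or 6 of LHP or tumor 11 or 12 of S7HP. E2f1, a cell cycle factor, was at 10.61, 11.21 and 11.56 in LHP and 9.02, 9.88 and 9.69 in S7HP and fell by 1.60 ± 0.30 (limma, Benjamini-Hochberg adjusted p = 0.0072). Cenpa, the centromere histone, was at 13.67, 13.73 and 14.47 in LHP and 12.37, 12.83 and 12.49 in S7HP and fell by 1.39 ± 0.30 (limma, Benjamini-Hochberg adjusted p = 0.0126), and Birc5, survivin, overlapped at 12.82, 11.83 and 12.997 in LHP and 11.53, 13.39 and 12.31 in S7HP. Of 14 cyclin D and CDK inhibitor genes 2 (14.3%) rose and 1 (7.14%) fell, near the 9.47% and 9.54% of all tested genes. Cdkn2a was abundant in all tumors at 15.60, 14.86 and 14.07 in LHP and 14.85, 15.41 and 15.94 in S7HP. The cyclin list rises became 0 without tumor 2 or 3 of LHP or tumor 9 or 12 of S7HP and 1 without tumor 6 of LHP or tumor 11 of S7HP or tumor 13 of S7HP+Snail. The cyclin list fall was lost without tumor 2, 3 or 6 of LHP or tumor 9 of S7HP and became 2 without tumor 13 or 14 of S7HP+Snail. Of 23 p53 targets, 3 (13.0%) rose and 3 (13.0%) fell, near the 9.47% and 9.54% of all tested genes. Btg2, an antiproliferative gene, and Bbc3, the death protein PUMA, rose by 2.10 ± 0.37 and 1.76 ± 0.37, and the ribonucleotide reductase gene Rrm2b fell by 1.23 ± 0.23 (limma, Benjamini-Hochberg adjusted p = 0.00606, 0.0115 and 0.00744). Mdm2 overlapped at 12.13, 11.43 and 11.47 in LHP and 10.67, 11.48 and 11.24 in S7HP.

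**Figure D4:**
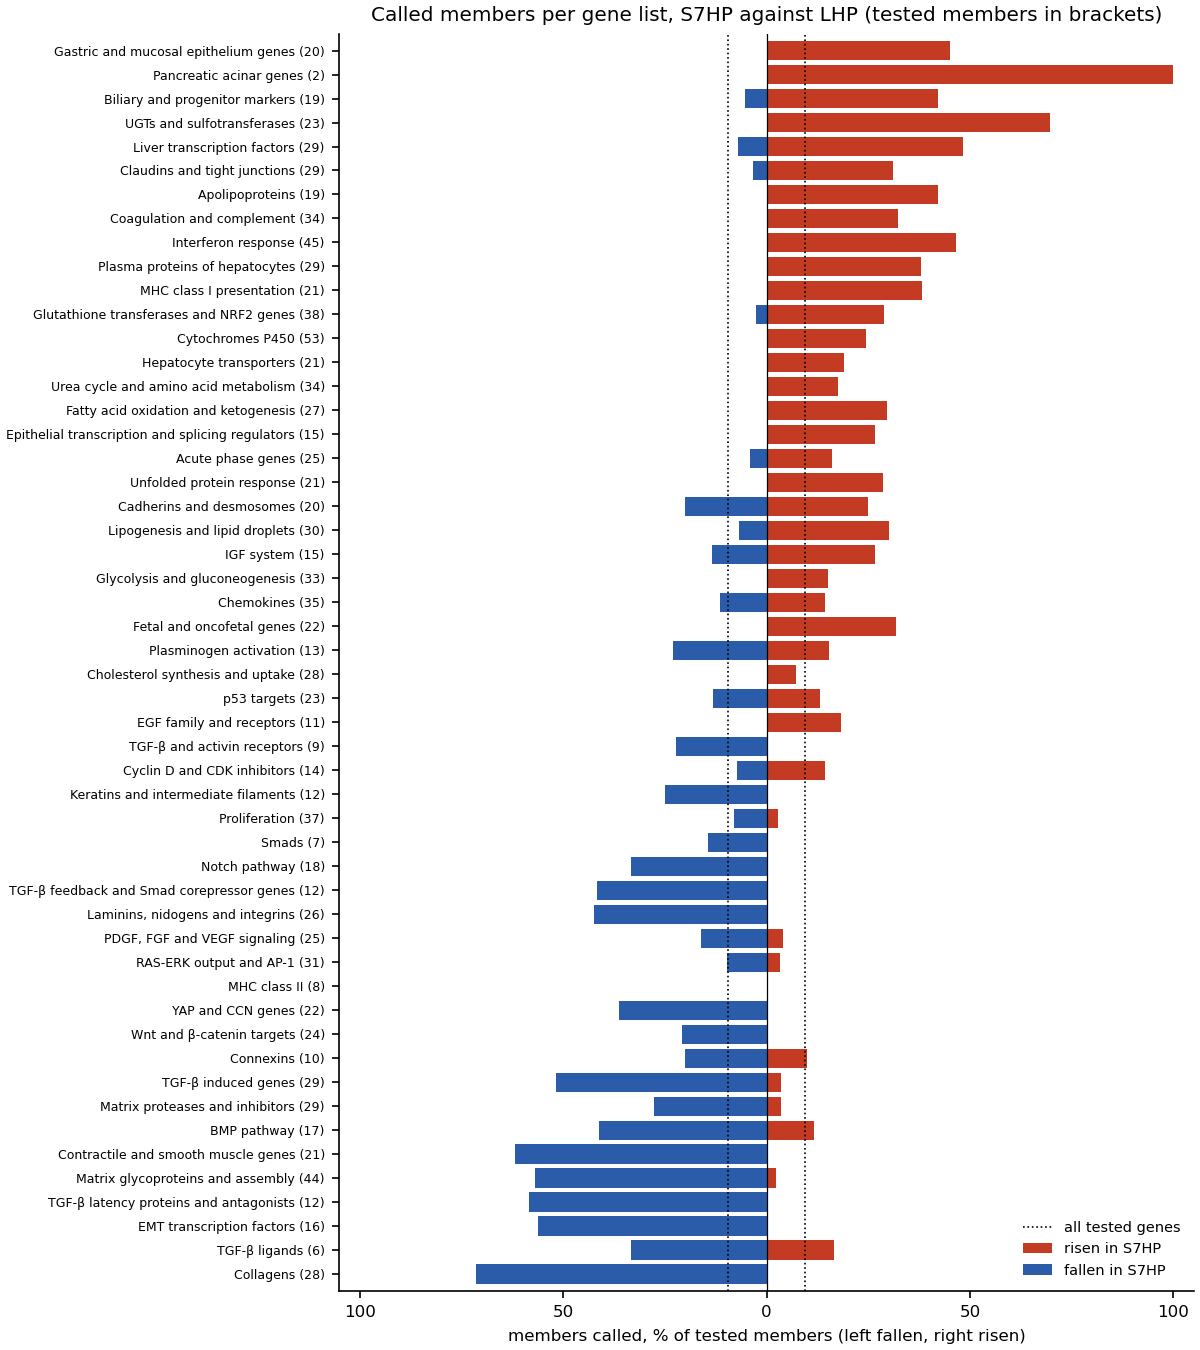
Bars give, for each of 52 gene lists, the percentage of tested members that rose (right) or fell (left) in S7HP, with the number tested in brackets and dotted lines at the 9.47% and 9.54% of all tested genes. Lists are ordered by median difference, from the gastric and mucosal genes at the top to the collagens at the bottom. The pancreatic acinar bar rests on the 2 genes that the filter passed, and the place of the gastric list on the 20 that it passed.

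Of 14 endothelial markers 3 (21.4%) fell and none rose, and of 14 macrophage markers 1 (7.14%) fell and none rose. Over all tested genes 9.54% were called lower. Of 7 erythroid markers 1 rose and none fell, and of 2 tested B and plasma cell markers 1 fell and none rose, with Pax5 at 0 in all 6 tumors. None of the tested T and NK cell, neutrophil or mesothelial markers was called. The endothelial falls became 1 without tumor 3 or 6 of LHP or tumor 11 or 12 of S7HP. The macrophage fall became 2 without tumor 9 of S7HP. The T and NK cell rises became 1 without tumor 6 of LHP. The neutrophil rises became 1 without tumor 15 of S7HP+Snail. The neutrophil falls became 1 without tumor 15 of S7HP+Snail. The mesothelial rises became 1 without tumor 14 of S7HP+Snail. The erythroid rise was lost without tumor 2 or 6 of LHP or tumor 9 of S7HP. The B and plasma cell fall was lost without tumor 2 or 6 of LHP or tumor 11 or 12 of S7HP and became 2 without tumor 3 of LHP.

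**Figure D5:**
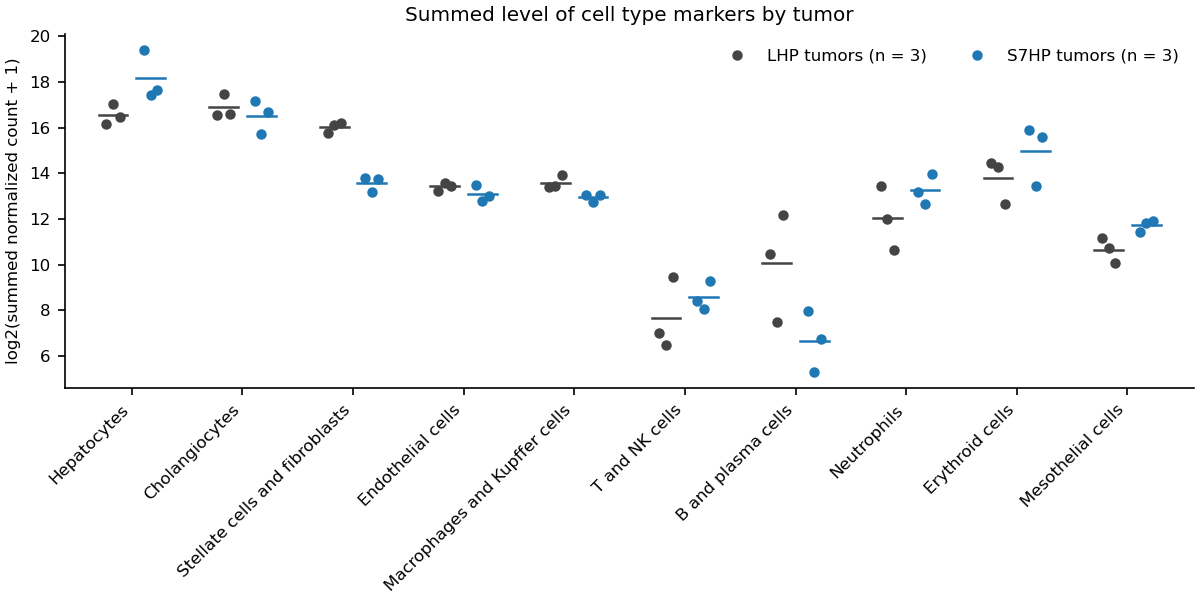
For 10 cell types the summed level of their markers is plotted per tumor as log2 of the summed normalized counts plus 1, with bars at the means of 3 tumors and an axis that does not start at 0. A sum follows its most abundant genes, such as Spp1 for cholangiocytes. Sums of stellate cell and fibroblast markers and of macrophage markers are lower in all 3 S7HP tumors than in all 3 LHP tumors. Hepatocyte and mesothelial sums are higher in all 3 S7HP tumors than in all 3 LHP tumors.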

How the data were processed

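RNA of 9 mouse liver tumors was made into QuantSeq 3′ libraries from 500 ng of total RNA, per the labels' protocols. Bowtie2, edgeR and the build mm10 are named, without versions or roles, in the submitters' processing notes. The authors deposited 24421 symbols per file on a log2 scale. That these are quantile-normalized counts with 1 added was read from the numbers: in every file the maximum is 20.06, and totals lie between 19910396 and 19911234 normalized counts. The depth of each library is not preserved, and for the counting step the sources used here give neither tool nor annotation.

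Genes at 4 or more in at least 3 of 9 files (14215) were fitted with limma 3.58.1 in R 4.3.3 (lmFit over all 9 tumors with 6 residual degrees of freedom, contrast S7HP minus LHP, eBayes with trend and robust variances). Tests were two-sided with Benjamini-Hochberg adjustment over all tested genes. Replicates are tumors. Differences are on the log2(value + 1) scale and understate the changes of low genes, and genes listed at 0 in a whole group are given without a difference. An exact permutation test of 3 against 3 tumors cannot go below 0.1 and was not used. On simulated data the procedure called 6%, 70%, 82% and 98% of genes changed by 1, 2, 3 and 5 log2 units, with 3 calls among 14015 unchanged genes. Only 50 of 14215 genes were changed at each size, in S7HP alone, and values were drawn as normal with no floor at 0. The adjusted p depends on how many genes change, and 2702 were called in the data, so these rates need not hold here.

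The comparison and the gene lists (52 of pathways, 10 of cell types) were chosen with earlier results of these data known, so no list is independent evidence of its direction. The rule for naming genes took Hras, Smad7, Snai1 and Trp53, at most 4 called members of a list (lowest adjusted p first) whose groups did not overlap and whose call stayed in all 9 fits leaving out 1 tumor, the most abundant uncalled member of each list, any Smad, EMT factor, TGF-β ligand or receptor, and the 10 largest rises and falls with a higher group mean of at least 8. Alb, Cxcl10, Isg15, Id2, Cyp2a5, Pdgfra and those said to be so were named after their values were seen. Some genes within the lists are not reported here. Coordinates are those of GENCODE release M21 on GRCm38, and promoters those of RefSeq on GRCm38.p6. Alternatives were median centring, cyclic loess, a pseudocount of 8, no filter, a filter at 6, no trend or robust step, a fit of 6 tumors, and leaving out each tumor. No count test was run on these normalized values. Plots used matplotlib 3.10.9 in Python 3.11.15.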

Additional observations from a re-analysis of the deposited data

How the results depend on the processing

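With each of the 9 tumors left out in turn, between 1465 and 3163 genes were called, 746 to 1531 of them higher and 702 to 1632 lower, against 2702, 1346 and 1356 with all 9. The other 7 alternatives called between 2447 and 3430 genes, the upper value with only the LHP and S7HP tumors fitted. In that fit, 12 genes that the naming rule took were called that had not been called with all 9 tumors. The share called higher was 46.8% to 52.3% over all these settings, and median centring and cyclic loess moved the median of all genes by 0.0012 and -0.0074. Of the 224 genes that the naming rule took, 15 changed sign in at least 1 fit leaving out 1 tumor, and none of the 15 was called in any setting. Over those fits their differences ranged from -0.387 to 0.745 for Acvr1b, -0.175 to 0.229 for Acvr2a, -0.539 to 0.283 for Acvr2b, -0.118 to 0.197 for Anxa2, -0.627 to 0.305 for Birc5, -0.226 to 0.668 for C3, -0.344 to 0.117 for Eng, -0.084 to 0.631 for Hp, -0.094 to 0.513 for Klf4, -0.118 to 0.372 for Smad4, -1.44 to 0.073 for Snai2, -0.698 to 0.099 for Spp1, -0.463 to 0.05 for Tgfbr3, -0.256 to 0.029 for Trp53 and -0.199 to 0.377 for Vegfa. No other of these genes changed sign under the 7 other alternatives or without 1 tumor, where it was tested. No paired analysis was possible because the groups share no tumor numbers. Read depth is not preserved in the deposited values, so the error of low genes cannot be given.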

Other observations

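Some of the largest changes lay in genes not described with the lists above. Bex1, a small adaptor protein gene on the X chromosome, was at 5.34, 1.83 and 1.74 in LHP tumors 2, 3 and 6 and at 11.90, 13.05 and 11.17 in S7HP tumors 9, 11 and 12. It rose by 9.07 ± 1.12 on the log2 scale (SE; limma, Benjamini-Hochberg adjusted p = 0.00121), and Tceal5, a neighbour in the same gene family cluster, rose by 7.43 ± 0.82 (limma, Benjamini-Hochberg adjusted p = 0.000755). Vsig1, a junction protein of stomach epithelium already counted among the gastric rises, was at 4.85, 0 and 0 in LHP and 8.93, 11.19 and 11.19 in S7HP. Hif3a, a hypoxia-inducible factor subunit, rose by 7.50 ± 1.26 and Igsf1 by 7.16 ± 1.01 (limma, Benjamini-Hochberg adjusted p = 0.00499 and 0.00222). Slc7a9, the cystine transporter subunit of kidney and gut, was listed at 0 in all 3 LHP tumors and stood at 9.12, 8.25 and 8.34 in S7HP.

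The largest falls held genes known from other tissues. Sox2, a stem cell and foregut factor, was at 9.83, 9.63 and 9.40 in LHP and 1.58, 0 and 0.42 in S7HP (limma, Benjamini-Hochberg adjusted p = 0.00585). Stmn2, a neuronal microtubule regulator, was at 11.86, 12.10 and 12.26 in LHP and 3.86, 0 and 4.57 in S7HP (limma, Benjamini-Hochberg adjusted p = 0.00148). Dynap was at 13.55, 12.77 and 12.61 in LHP and 1.58, 3.53 and 6.34 in S7HP. Lmo1 and Bhlhe22, both transcriptional regulators of neural tissue, fell by 7.19 ± 1.28 and 7.09 ± 0.94 (limma, Benjamini-Hochberg adjusted p = 0.00616 and 0.00164). Prl3d2, of the placental lactogen genes, fell by 7.36 ± 1.40 (limma, Benjamini-Hochberg adjusted p = 0.00783) and has close copies that may share its reads. Lce1g, a cornified envelope gene, and Kcnj12, a potassium channel gene, were listed at 0 in all 3 S7HP tumors and stood at 8.79, 10.32 and 8.78 and at 7.38, 10.17 and 7.34 in LHP. Among called genes, 17 were listed at 0 in all LHP tumors and 40 in all S7HP tumors, and the S7HP libraries held more symbols at 0 (8062 to 8392 against 7750 to 7908). The part of depth in that difference was not tested.

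Several cytochrome P450 genes known as female-predominant in adult mouse liver were higher in S7HP, a group picked after the values were seen. Besides Cyp2a4, Cyp2b9 and Cyp2b13, they include Cyp2c40, at 4.21, 4.27 and 4.42 in LHP and 7.82, 6.43 and 6.02 in S7HP, and Cyp3a41a, at 0.29, 2.64 and 0.29 in LHP and 8.70, 3.74 and 5.58 in S7HP, whose call stayed in 4 of the 9 fits leaving out 1 tumor. All of these but Cyp2c40 passed the filter on low values only through the groups where they were high. The male-predominant Cyp4a12a was at 3.38, 0.29 and 8.11 in LHP and 7.07, 8.90 and 2.92 in S7HP, with overlap. The Y-linked gene Ddx3y was at 9.49, 9.78 and 9.97 in LHP and 10.32, 10.03 and 9.94 in S7HP, and Xist lay between 0 and 4.64 in the 6 tumors. Neither was called.

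By chromosome, 18.5% of the 552 tested genes on chromosome 15 fell and 6.88% rose, against 9.54% and 9.47% of all tested genes. The median of their values, each gene centred on its mean over the 6 tumors, was 0.032, 0.183 and 0.246 in LHP and -0.065, -0.136 and -0.134 in S7HP, without overlap. On chromosome 14 the order was the other way, with 12.8% risen and 6.09% fallen of 460 genes. Its medians nearly touched, at -0.014, -0.077 and -0.283 in LHP and 0.248, 0.153 and -0.011 in S7HP. Medians of chromosomes 16 and 17 were also higher in all S7HP tumors than in all LHP tumors, and 14.5% of tested genes on chromosome 18 fell. These chromosomes were singled out after the values were seen, and copy number was not measured.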
